A study of Mus musculus with 8 samples.

Results

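Fibroblast growth factor (FGF) receptors, ligands and feedback inhibitors were measured across the cells of the adult mouse tibia. The 10 genes were chosen by name, from 31053 in the mouse matrix: the receptors Fgfr1, Fgfr2 and Fgfr3, the receptor-like Fgfrl1, the ligands Fgf2, Fgf7 and Fgf18, and the Sprouty genes Spry1, Spry2 and Spry4. Their levels were read in 7 gates, which are sets of cells defined by raw counts of marker transcripts. None of the 10 genes took part in setting a gate.

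The tissue came from 3 mice pooled at P56 (8 weeks) without treatment, all of 1 genotype: MMP14 F/+, COL10A1cre, R26-tdT and Col1a1-2.3-GFP. Every cell therefore came from mice with 1 floxed Mmp14 allele, which Cre deletes in hypertrophic chondrocytes (HCs) and their descendants, and no group lacking Cre or the floxed allele was compared here. Cre is expressed from Col10a1 in HCs, tdTomato then marks HCs and what descends from them, and GFP marks osteoblasts. WPRE, a viral element at the end of the tdTomato transcript, was counted in place of tdTomato. The 8 labelled samples are of this 1 group, and the barcodes carry no mark of sample or mouse, so the pool counts as 1 sample. The differences below have no replicate check, and cells were not used as replicates to make a test.

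FGFs are secreted signals that bind receptor tyrosine kinases with the help of heparan sulfate, and the receptors signal through the mitogen-activated kinases. In the skeleton, Fgfr3 is known as a brake on chondrocyte proliferation and is the receptor altered in achondroplasia, while Fgfr1 and Fgfr2 act in osteoblasts and their precursors. Sprouty proteins are induced by the pathway and dampen it, and Fgfrl1 resembles the receptors but lacks the kinase domain.

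The pool held 12564 barcodes and 91463572 unique molecular identifiers (UMIs), and 4472 barcodes reached the floor of 1600 genes, with 3224 to 103543 UMIs each. Of these, 3286 lay in the Ptprc gate (at least 1 UMI of the blood-cell gene Ptprc), 541 in at least 1 of the 6 other gates, and 735 in none. The Col2a1 gate (at least 10 Col2a1 UMIs and at most 1 of Prg4) held 243 cells, the Col10a1/Ihh gate (at least 5 UMIs of both together) 79, and the Prg4/Cilp gate (at least 2 of both together, with Acan) 197. The Bglap gate (at least 20) held 54 cells, the Cxcl12 gate (at least 20, with 2 or more of Lepr and Adipoq) 23, and the Dcn/Col3a1 gate (at least 3 of each) 164. A gate for vessel cells, with Cdh5 and Pecam1 but no Ptprc, was added and held 39. The median cell held 7733 UMIs in the Cxcl12 gate, 25759.5 in the Bglap gate and 10049 in the Ptprc gate, with the other gates between 6972 and 24233. Levels are given as CPM, the UMIs of a gene per 1000000 UMIs of the same cells, with exact Poisson 95% intervals, which cover counting error only and are too narrow for the variation between cells or mice.

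The gates overlapped, and several held markers of another cell type. Of the 79 Col10a1/Ihh cells, 43 were also in the Col2a1 gate and 35 in the Prg4/Cilp gate. Of the 54 Bglap cells, 25 were also in the Col2a1 gate, and the 13 growth-plate chondrocyte markers summed to 28839 CPM beside 116636 for the 13 osteoblast markers. Of the 164 Dcn/Col3a1 cells, 81 were also in the Prg4/Cilp gate, and osteoblast markers (43342 CPM) and articular markers (16470 CPM) summed higher there than the 12 fibroblast or tendon markers (3110 CPM). The Cxcl12 gate held marrow stroma markers at 11837 CPM (11 of 11 seen) with growth-plate markers at 268 CPM (7 of 13 seen, Acan, Col9a1 and Matn1 among those at 0), and 1096 CPM of endothelial or mural markers. Neutrophil markers summed to 2356 to 13140 CPM in the 6 non-blood gates, against 127147 CPM in the Ptprc gate. Erythroid markers summed to 10036 to 41158 CPM in those 6 gates, highest in the Cxcl12 gate, against 29077 CPM in the Ptprc gate. The part of RNA from other cells in the values below was not tested. Levels by gate count shared cells in each of their gates, so intervals of such gates rest partly on the same UMIs. Values are therefore also given below within parts of a gate; these splits were chosen after the data had been seen.

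Sequence upstream of the RefSeq start is shown for the 3 genes that were highest in the Cxcl12 gate (Fgf7, Spry1 and Fgfr2), for Fgf18, highest in the Prg4/Cilp gate, and for Fgfr3, highest in the Col2a1 gate. Each runs 5′ to 3′ on the strand of its gene and is from RefSeq (GRCm38.p6), at chr2:126034408-126034657 plus strand (Fgf7), chr3:37639697-37639946 plus (Spry1), chr7:130266809-130267058 minus (Fgfr2), chr11:33147401-33147650 minus (Fgf18) and chr5:33721474-33721673 plus (Fgfr3). The window of Fgfr2 lies inside the longer span that GENCODE gives this gene. That of Fgfr3 was shortened to the 200 bases before the annotated exon. Capitals mark matches, on either strand, to the CCAAT box and to the GC box GGGCGG.
Fgf7: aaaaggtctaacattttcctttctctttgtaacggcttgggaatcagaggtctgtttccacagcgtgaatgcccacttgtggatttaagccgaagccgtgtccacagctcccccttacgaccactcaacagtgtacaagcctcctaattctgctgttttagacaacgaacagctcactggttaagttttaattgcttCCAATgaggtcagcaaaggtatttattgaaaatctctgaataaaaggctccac
Spry1: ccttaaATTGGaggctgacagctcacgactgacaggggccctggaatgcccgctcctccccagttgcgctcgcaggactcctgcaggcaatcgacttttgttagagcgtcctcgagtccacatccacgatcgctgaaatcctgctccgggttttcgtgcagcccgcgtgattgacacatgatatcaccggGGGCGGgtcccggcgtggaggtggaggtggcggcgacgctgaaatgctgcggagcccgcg
Fgfr2: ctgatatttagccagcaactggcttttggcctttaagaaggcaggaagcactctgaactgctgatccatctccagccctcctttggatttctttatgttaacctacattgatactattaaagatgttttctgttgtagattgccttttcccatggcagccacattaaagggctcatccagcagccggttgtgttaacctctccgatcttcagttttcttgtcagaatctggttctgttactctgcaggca
Fgf18: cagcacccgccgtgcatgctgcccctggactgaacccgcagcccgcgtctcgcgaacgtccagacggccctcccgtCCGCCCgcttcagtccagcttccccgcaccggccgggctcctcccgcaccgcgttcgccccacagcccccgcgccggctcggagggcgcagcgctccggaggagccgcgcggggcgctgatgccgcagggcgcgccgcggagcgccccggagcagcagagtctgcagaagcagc
Fgfr3: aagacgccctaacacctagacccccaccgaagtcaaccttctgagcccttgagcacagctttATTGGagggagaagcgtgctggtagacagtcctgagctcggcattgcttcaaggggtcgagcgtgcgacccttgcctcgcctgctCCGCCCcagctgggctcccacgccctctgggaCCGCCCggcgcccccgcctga
Fgf7 and Fgfr2, with 43.6% and 44.0% G and C over 250 bases, lay below the median of 52.4% over 32841 promoters of that length, and Spry1 (62.4%), Fgfr3 (66.8%) and Fgf18 (77.2%) above it, the value of Fgfr3 being that of its whole RefSeq window, the end of which is not shown. A further RefSeq window of Fgfr3 held 72.8% G and C and no match to the CCAAT box. The window of Fgf18 held 37 CpG pairs and that of Fgfr2 held 2, against a median of 6. The CCAAT box matched Fgf7, Spry1 and the Fgfr3 window shown and 33.9% of all promoters, and the GC box matched Spry1, Fgf18 and Fgfr3 and 32.7% of all. Also searched on both strands were the TATA box TATAAA, in 12.4% of all promoters, the RUNX core TGTGGT, in 14% of them, the SOX core ACAATG, in 10.7%, and the ETS core CCGGAAGT, in 2.88%. None matched the 5 windows, which says only that these letters are absent there. A match is a description of the sequence and not a binding site.

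Fgfr1, the receptor that is widespread in mesenchymal cells, was seen in each of the 6 non-blood gates at levels from 165 to 258 CPM, and at 59.0 (36.5 to 90.2) in the vessel gate. It stood at 258 CPM (237 to 279.6) in the Dcn/Col3a1 gate, 245 (220.3 to 272) in the Bglap gate and 243 (222 to 266) in the Col10a1/Ihh gate, whose intervals overlap. It was lower in the Col2a1 gate (195, 184 to 207), the Prg4/Cilp gate (174, 159 to 190.2) and the Cxcl12 gate (165, 115 to 229). Neighbours in this order overlapped in their intervals except the Col10a1/Ihh and Col2a1 gates. A UMI of Fgfr1 was seen in 69.6% to 87.0% of cells of these 6 gates, against 2.38% of the 3196 Ptprc cells of no other gate, whose median depth was 9804.5 UMIs. After each cell was thinned to 3000 UMIs, so that depth is equal, the shares were 35.9% to 51.6% against 0.890%. Within a gate the cells spread widely: in the Dcn/Col3a1 gate the median cell held 197 CPM and the highest 2211.

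Fgfr3, the growth-plate receptor, was highest in the Col2a1 and Col10a1/Ihh gates. It was at 199.6 CPM (188 to 212) in the Col2a1 gate and 192 (174 to 213) in the Col10a1/Ihh gate, with a UMI in 87.2% and 81.0% of cells. The Bglap gate (109 CPM, 93.0 to 127) and the Prg4/Cilp gate (86.5, 75.9 to 98.1) followed, with overlapping intervals, and then the Dcn/Col3a1 gate (46.4, 37.9 to 56.1). In the Cxcl12 gate 3 UMIs were counted, 14.1 CPM (2.91 to 41.2). Thinned to equal depth, the share of cells with a UMI was 42.1% in the Col2a1 gate, 10.7% in the Dcn/Col3a1 gate and 0.148% in the Ptprc cells of no other gate.

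Fgfr2, whose splice forms serve epithelium and mesenchyme, showed another order. The 23 Cxcl12 cells held 287 CPM (219 to 368), and 87.0% of them had a UMI. The Prg4/Cilp gate (73.5 CPM, 63.8 to 84.3) and the Dcn/Col3a1 gate (67.6, 57.3 to 79.1) came next and overlapped, and then the Bglap gate (42.1, 32.3 to 53.9). The Col2a1 gate (18.7, 15.3 to 22.6) and the Col10a1/Ihh gate (17.7, 12.3 to 24.7) were lowest of the 6 and overlapped. At equal depth 54.2% of Cxcl12 cells and 6.27% of Col2a1 cells held a UMI, against 0.0260% of the Ptprc cells of no other gate. No single cell accounts for the Cxcl12 level, since the top cell held 18.0% of the 61 UMIs.

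Fgfrl1, the receptor without a kinase, was highest in the Col2a1 gate, at 127 CPM (118 to 137) and in 83.5% of its cells. The Prg4/Cilp gate held 95.1 CPM (84.0 to 107), the Cxcl12 gate 75.2 (43.0 to 122), the Col10a1/Ihh gate 70.4 (59.2 to 83.1), the Dcn/Col3a1 gate 62.7 (52.8 to 73.9) and the Bglap gate 42.7 (32.8 to 54.7). From the Prg4/Cilp gate down, each gate overlapped with the next in that order in its interval. In the Ptprc cells of no other gate Fgfrl1 was at 2.06 CPM, with a UMI in 2.35% of cells.

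**Figure D1:**
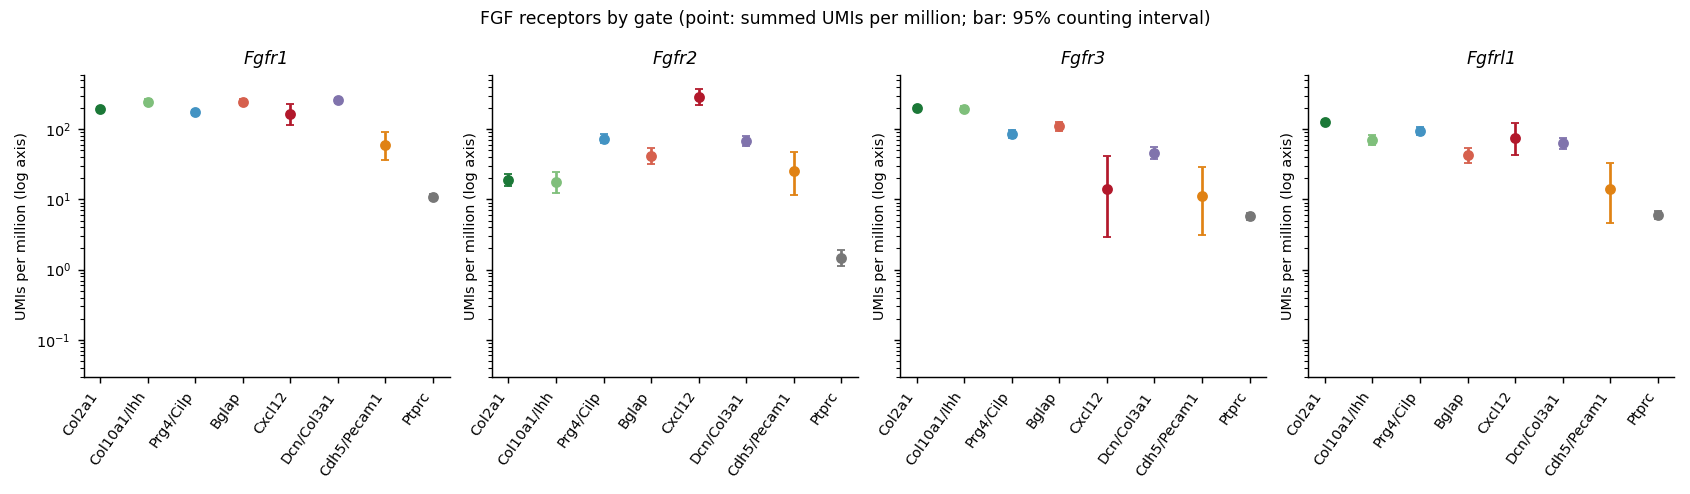
Levels of the 4 receptor genes by gate, in CPM on a log axis, each point being the pooled level of a gate and each bar its exact Poisson 95% interval (counting error only). Fgfr1 stays between 165 and 258 CPM in the 6 non-blood gates of the rule, while Fgfr2 is highest in the Cxcl12 gate (287) and Fgfr3 and Fgfrl1 in the Col2a1 gate (199.6 and 127).

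The make-up of receptor UMIs, which is compared here only between gates and not between genes, changed accordingly. Fgfr3 made up 48.3% of the UMIs of Fgfr1, Fgfr2 and Fgfr3 in the Col2a1 gate (exact 95% interval 46.3% to 50.4%), 25.9% in the Prg4/Cilp gate (23.1% to 28.8%) and 12.5% in the Dcn/Col3a1 gate (10.3% to 14.9%). In the Cxcl12 gate Fgfr2 made up 61.6% (51.3% to 71.2%) and Fgfr3 3.03% (0.629% to 8.60%). In the Col2a1 gate 148 of 243 cells (60.9%) held UMIs of both Fgfr1 and Fgfr3, whereas in the Cxcl12 gate 15 of 23 (65.2%) held both Fgfr1 and Fgfr2 and 1 held both Fgfr1 and Fgfr3. Thinned to equal depth these shares were 12.5%, 25.7% and 1.87%, and in the Ptprc cells of no other gate 1 of 3196 held Fgfr1 with Fgfr3. Whether receptors share cells beyond what the share of each alone gives was not tested. In bulk or pooled values, fewer cells with a transcript and less of it per cell cannot be told apart, and at these depths the same holds for a cell without a UMI.

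**Figure D2:**
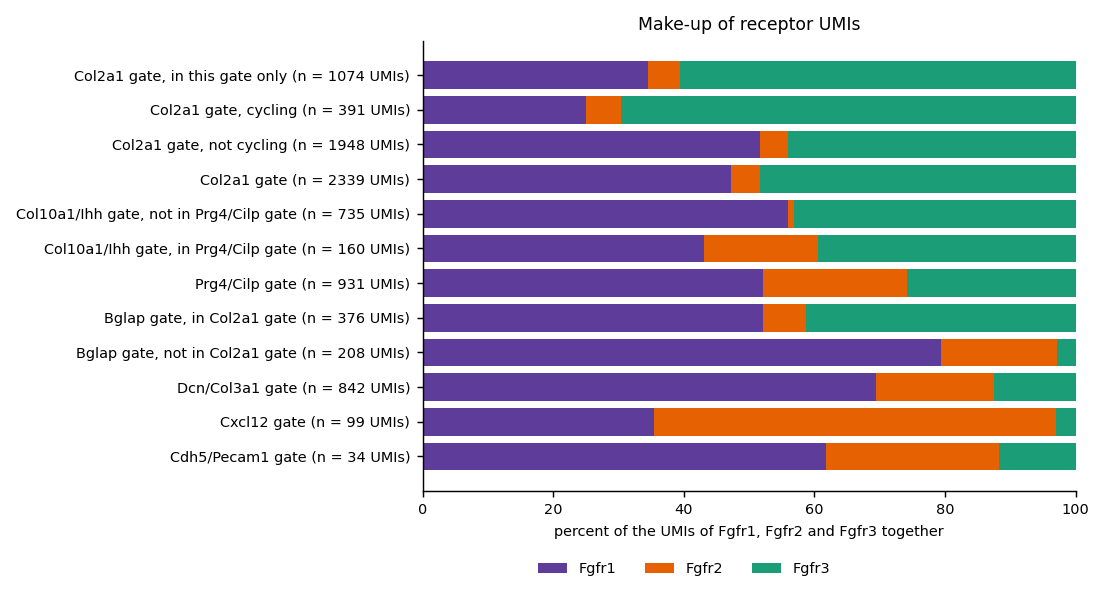
Percent of the UMIs of Fgfr1, Fgfr2 and Fgfr3 together that came from each, in gates and parts of gates, with the number of receptor UMIs (n) after each name. Fgfr2 fills 61.6% of the bar of the Cxcl12 gate and 4.53% of that of the Col2a1 gate, and Fgfr3 makes up 41.2% in Bglap cells that were also in the Col2a1 gate and 2.88% in those that were not.

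Among the ligands, Fgf2, a heparin-binding mitogen without a classical secretion signal, was highest in the Prg4/Cilp gate. It stood there at 165 CPM (150.3 to 181), with a UMI in 61.4% of cells. The Col10a1/Ihh gate held 98.3 CPM (84.9 to 113) and the Dcn/Col3a1 gate 83.0 (71.6 to 95.8), which overlapped, the Col2a1 gate 36.2 (31.4 to 41.5), the Bglap gate 19.7 (13.2 to 28.3) and the Cxcl12 gate 9.41 from 2 UMIs. The 39 vessel cells held none, which allows up to 8.43 CPM. Fgf2 overlaps 4 annotated genes, among them Nudt6 and the antisense gene Fgf2os on the opposite strand and Gm43439 on the same strand. The sources used here do not say whether strand was used in counting, and strand would not separate Gm43439, so reads of these genes cannot be told apart with certainty.

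Fgf7 (keratinocyte growth factor, a mesenchymal ligand of an Fgfr2 splice form) was concentrated in the smallest gate. The Cxcl12 gate held 28 UMIs, or 132 CPM (87.5 to 190.3), in 13 of 23 cells, and the top cell held 14.3% of them. The vessel gate (14.05 from 5 UMIs) and the Dcn/Col3a1 gate (11.5, 7.50 to 16.8) followed and overlapped, and the Bglap (2.71), Prg4/Cilp (2.15) and Col2a1 (0.530) gates rested on 3 to 6 UMIs each. None was counted in the 79 Col10a1/Ihh cells, which allows up to 1.52 CPM, and 1 UMI was counted in the 3196 Ptprc cells of no other gate. In the Cxcl12 gate 11 of 23 cells (47.8%) held both Fgf7 and Fgfr2, or 13.5% at equal depth, against 6 of 164 (3.66%) in the Dcn/Col3a1 gate. Each gene alone was seen in 13 (Fgf7) and 20 (Fgfr2) Cxcl12 cells, and in 14 and 67 Dcn/Col3a1 cells. Whether they share cells beyond what these counts give was not tested.

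Fgf18, known in cartilage as a ligand of Fgfr3, was seen in few cells of any gate. The Prg4/Cilp gate held 23.0 CPM (17.7 to 29.3) and the Dcn/Col3a1 gate 20.3 (14.9 to 27.1), with a UMI in 21.3% and 18.9% of cells. These intervals overlapped, with 81 cells lying in both gates, and both levels were above the Col10a1/Ihh gate (5.57, 2.78 to 9.97) and the Col2a1 gate (3.71, 2.30 to 5.67). The Bglap and Cxcl12 gates held 3 and 1 UMIs, and the Ptprc cells of no other gate 12, or 0.305 CPM.

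The Sprouty genes did not share a pattern. Spry1 was at 188 CPM (134 to 256) in the Cxcl12 gate, in 13 of 23 cells, and at 92.7 CPM (63.8 to 130.2) in the vessel gate. It was 15.0 CPM (10.4 to 21.0) in the Dcn/Col3a1 gate, 7.53 (4.66 to 11.5) in the Prg4/Cilp gate and 6.79 (3.25 to 12.5) in the Bglap gate, which overlapped in turn. The Col2a1 gate held 3 UMIs and the Col10a1/Ihh gate none. In the Cxcl12 gate 12 of 23 cells (52.2%) held both Fgfr2 and Spry1, against 11 of 164 (6.71%) in the Dcn/Col3a1 gate, and 19.4% against 1.29% at equal depth. Alone, Fgfr2 was seen in 20 and 67 cells of these gates and Spry1 in 13 and 26. Sharing of cells beyond that was not tested.

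Spry4 resembled Spry1. It was at 75.9 CPM (49.99 to 110.4) in the vessel gate and 42.3 (19.4 to 80.3, from 9 UMIs) in the Cxcl12 gate, which overlapped, and at 3.00 to 15.5 CPM in the Col2a1, Col10a1/Ihh, Prg4/Cilp, Bglap and Dcn/Col3a1 gates. Spry2, by contrast, was spread over cartilage and blood. It was highest in the Prg4/Cilp gate, at 40.5 CPM (33.4 to 48.7), followed by the Dcn/Col3a1 (22.5, 16.8 to 29.6), Col10a1/Ihh (22.3, 16.2 to 29.9) and Col2a1 (17.8, 14.5 to 21.7) gates, which overlapped. In the Cxcl12 gate 1 UMI of Spry2 was counted.

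Within blood, Spry2 stood at 16.5 CPM (13.9 to 19.3) in all 496 cells with T or NK cell transcripts (Cd3e, Cd3g, Nkg7), 12.4 (10.1 to 14.9) in Elane/Mpo cells, 11.8 (9.81 to 14.1) in B-lineage cells, 11.8 (9.04 to 15.2) in Kit/Cd34 cells, 7.21 (5.98 to 8.62) in Ltf/Camp cells and 2.69 (1.59 to 4.25) in Csf1r cells, classes that share cells. Among Ptprc cells of exactly 1 blood class and no other gate, the 114 with T or NK transcripts held 43.8 CPM (31.4 to 59.4), the 693 B-lineage cells (Cd79a, Cd79b) 10.3 (8.06 to 12.97), the 829 Ltf/Camp neutrophil precursors 5.61 (4.24 to 7.29) and the 371 Csf1r cells 0.837 (0.173 to 2.44). The 11 Elane/Mpo cells of this kind held 42.1 (16.9 to 86.7, from 7 UMIs), which overlaps with the cells with T or NK transcripts, and the 47 Kit/Cd34 cells 11.01 (4.75 to 21.7), which overlaps with the B-lineage and Ltf/Camp cells. At equal depth 11.9% of the cells with T or NK transcripts, 3.42% of the B-lineage, 1.69% of the Ltf/Camp and 0.216% of the Csf1r cells held a UMI. In all 496 cells with T or NK transcripts, Nkg7 gave 630 of the 975 CPM of T or NK markers, and neutrophil markers summed to 106855 CPM. The markers of the 114 cells were not checked. Counting only cells of exactly 1 class was chosen after the data had been seen, since 62.1% of all cells with T or NK transcripts also met the rule for Elane/Mpo granulocyte precursors.

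**Figure D3:**
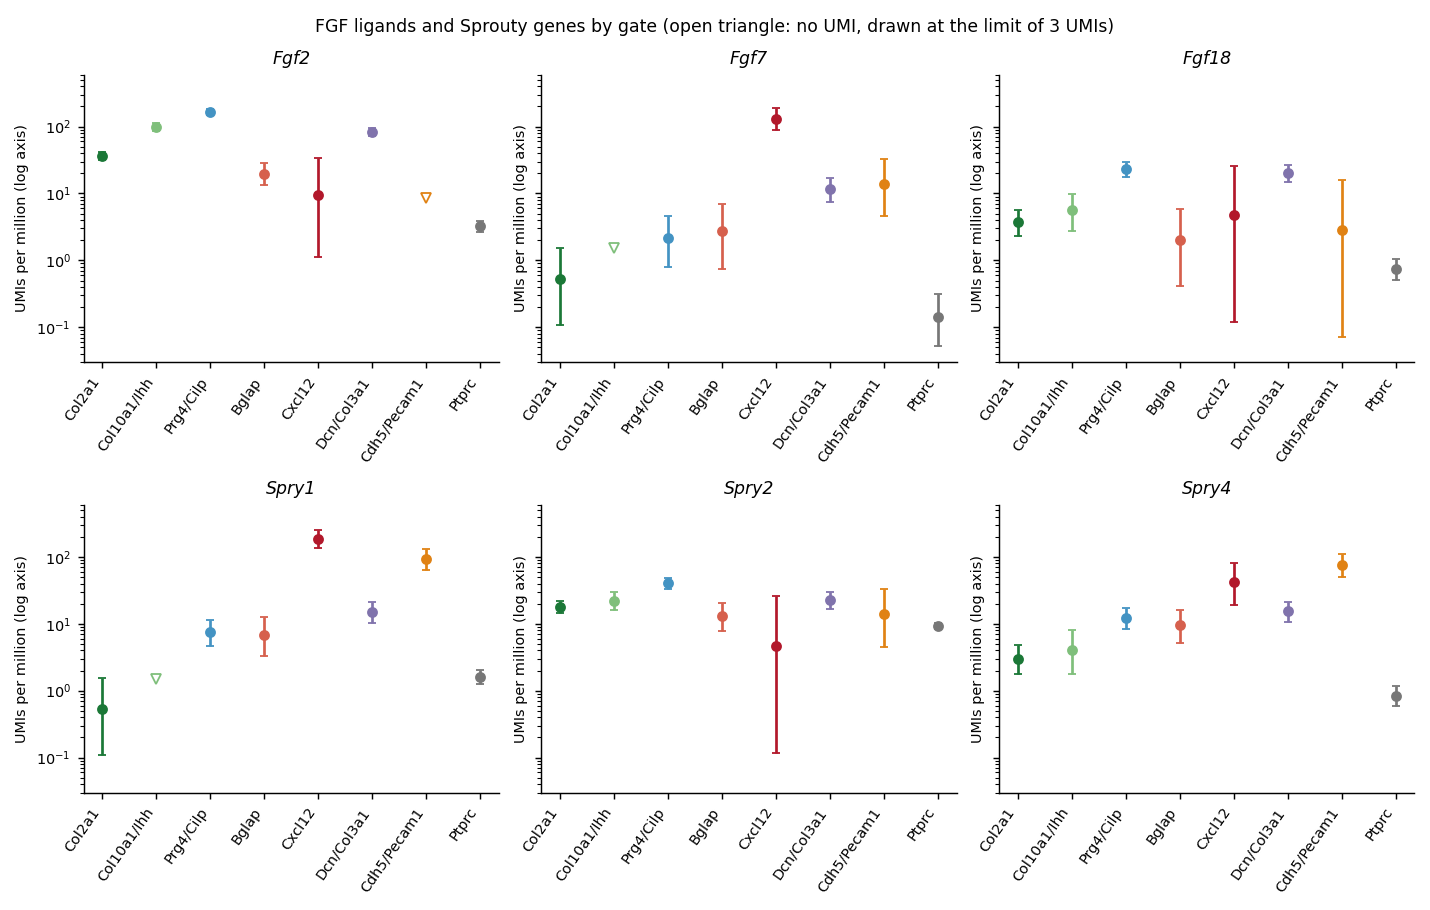
Levels of the 3 ligands and 3 Sprouty genes by gate, in CPM on a log axis, with exact Poisson 95% intervals (counting error only); an open triangle stands for a gate with no UMI and is drawn at the limit that 3 UMIs allow. Fgf7 and Spry1 stand highest in the Cxcl12 gate (132 and 188 CPM), Spry1 and Spry4 are also high in the Cdh5/Pecam1 gate (92.7 and 75.9), and Fgf2, Fgf18 and Spry2 are highest in the Prg4/Cilp gate.

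Pairs of cell sets were then compared by the log2 ratio of their CPM, with an exact conditional 95% interval for counting error. A gene was called where both sides together held at least 50 UMIs, the interval left out 0 and the ratio was at least 2-fold (a log2 ratio of 1). Cells that belonged to both sides were counted with the side named first. The share of all genes that the same rule called is given beside the first count of the 10 genes in each comparison and direction.

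The 79 cells of the Col10a1/Ihh gate, where hypertrophic markers summed to 13428 CPM and articular markers to 13445, were compared with 200 of the Col2a1 gate. Fgf2 was higher, at 98.3 against 38.6 CPM (log2 ratio 1.35, 1.04 to 1.66), and it was the only one of 6 members with enough UMIs to be called higher, where 4.82% of all genes were. Fgfrl1 was lower, at 70.4 against 148 CPM (-1.07, -1.34 to -0.80), the only member called lower, where 10.1% of all genes were. Fgfr1 was at 243 against 164 CPM (0.57, 0.40 to 0.74), under 2-fold, and Fgfr3 was at 192 on both sides (0.00, -0.18 to 0.18). The median log2 ratio was 0.14 over the 6 members and -0.13 over all genes.

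The Fgf2 of the Col10a1/Ihh gate lay in cells that were also in the Prg4/Cilp gate. The 35 such cells held 294 CPM (149 UMIs), and the 44 others 30.7 (45 UMIs), a log2 difference of 3.26 (2.77 to 3.77). Fgfr2 (55.2 against 4.77 CPM), Fgf18 (10 UMIs against 1) and Spry2 (41.4 against 15.7 CPM) divided the same way, and Fgfr1 (136 against 280.2 CPM) and Fgfr3 (124 against 216 CPM) the opposite way. Without those 35 cells, Fgf2 was at 30.7 CPM against 38.6 in the Col2a1 gate (-0.33, -0.84 to 0.15), so that its difference is no longer seen. Fgfrl1 stayed lower (-1.17, -1.50 to -0.86), Fgfr2 was then lower as well (4.77 against 23.7 CPM, -2.31, -3.66 to -1.21), and Fgfr1 was 0.77 higher (0.59 to 0.95).

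A split of the Col10a1/Ihh gate by Ihh, the hedgehog ligand of prehypertrophic cells, gave values of the same kind. In the 41 cells with Ihh, Fgfr1 was at 291 CPM, against 129 in the 38 without (1.17, 0.82 to 1.55), the only one of 4 members called higher, where 12.0% of all genes were. Fgf2 was at 30.3 against 258 CPM (-3.09, -3.62 to -2.59), the only member called lower, where 11.4% of all genes were. Fgfr3, at 226 against 114 CPM (0.99, 0.60 to 1.39), missed 2-fold. Of the 38 cells without Ihh, all but 4 were in the Prg4/Cilp gate, and without cells of that gate the Fgf2 ratio was 0.28.

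The 197 cells of the Prg4/Cilp gate, which requires Acan, were compared with 231 of the Col2a1 gate. Of 8 members with enough UMIs, 5 were called higher, where 9.76% of all genes were: Fgf18 (23.0 against 3.93 CPM, 2.55, 1.82 to 3.33), Fgf2 (165 against 34.8, 2.25, 2.00 to 2.50), Spry4 (12.2 against 2.99, 2.03, 1.13 to 2.98), Fgfr2 (73.5 against 18.5, 1.99, 1.64 to 2.35) and Spry2 (40.5 against 17.8, 1.19, 0.78 to 1.60). Fgfr3 was called lower, at 86.5 against 204 CPM (-1.24, -1.45 to -1.04), where 7.15% of all genes were. Fgfr1 (-0.18) and Fgfrl1 (-0.41) were within 2-fold. Fgf7 (6 against 3 UMIs) and Spry1 (21 against 3) had too few UMIs for a call. The median log2 ratio was 1.59 over the 8 members and 0.06 over all genes. In the 56 Prg4/Cilp cells of no other gate, Fgf2 was at 231 CPM, Fgfr2 at 113, Spry2 at 66.1 and Fgf18 at 42.5, each above the level of the whole gate. In cells of exactly 1 gate on both sides, Fgf2 (2.61), Fgfr2 (2.53), Spry2 (1.70) and Fgfr3 (-1.53) kept their calls, and Fgf18 (3.26) and Spry4 (3.68) were under the minimum of 50 UMIs.

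**Figure D4:**
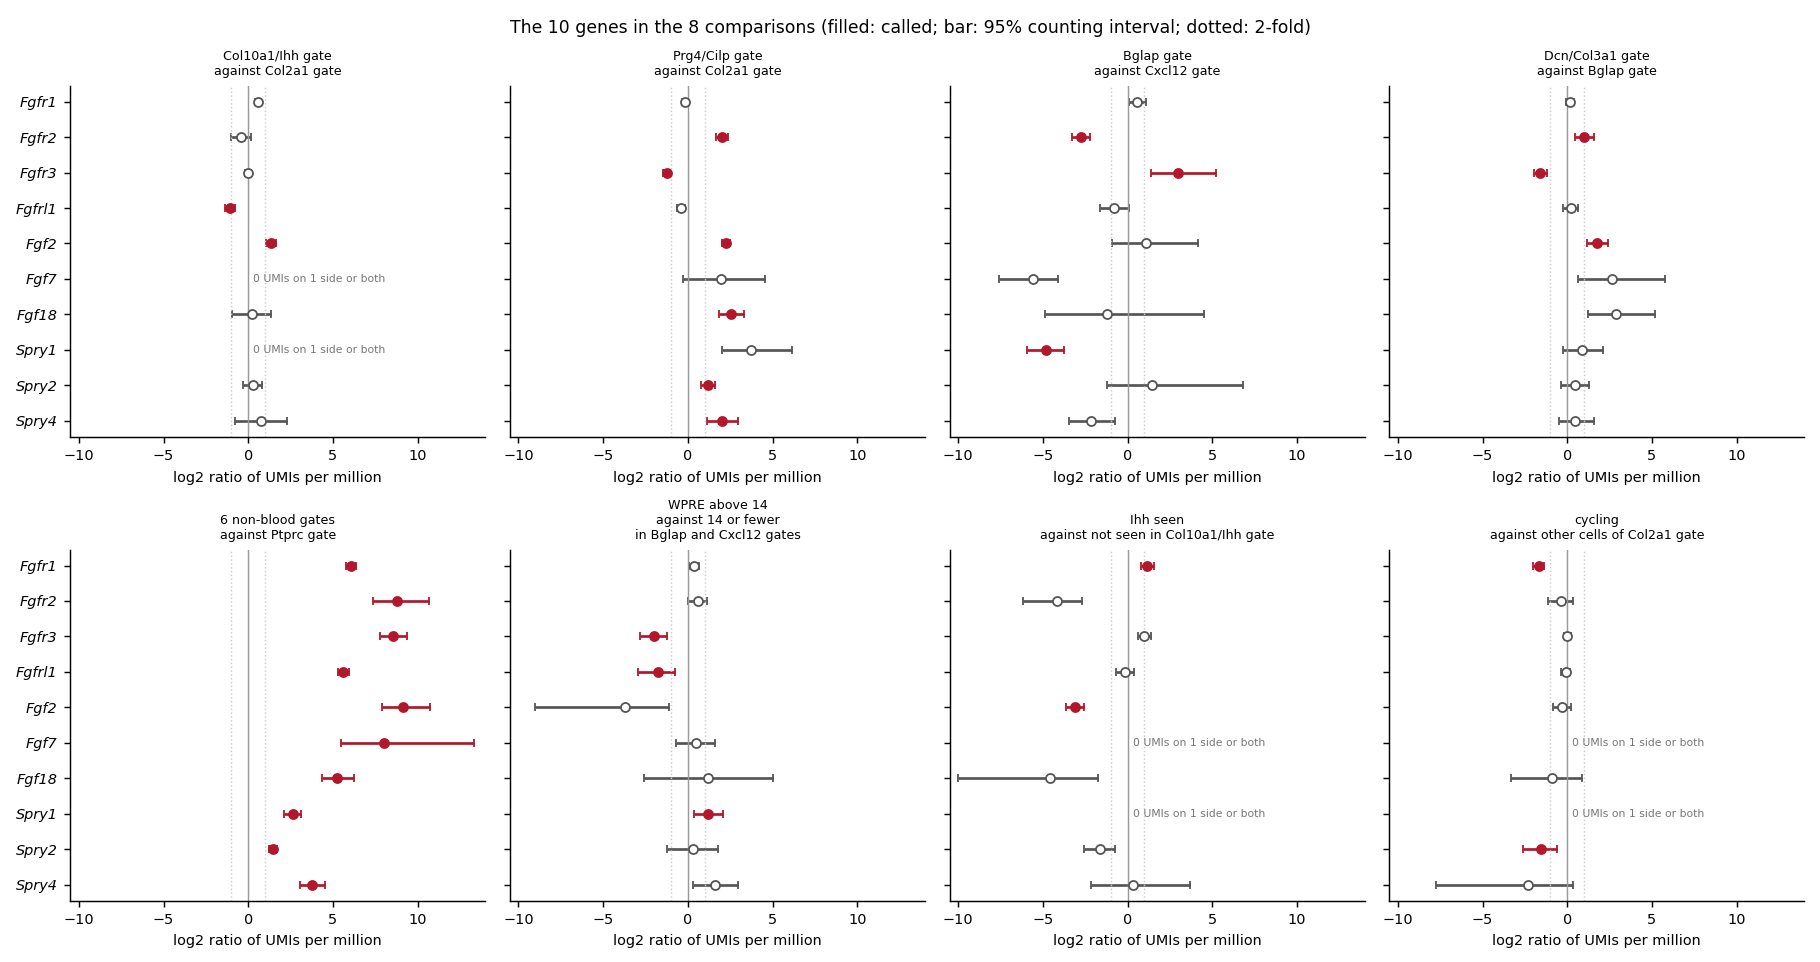
Log2 ratio of CPM of the 10 genes in the 8 comparisons, with exact conditional 95% intervals (counting error only); filled points passed the rule for a call, dotted lines mark 2-fold, and genes without UMIs on 1 or both sides carry no point. In the Prg4/Cilp gate against the Col2a1 gate 5 genes lie to the right and Fgfr3 to the left, and against the Ptprc gate all 10 lie to the right, from 1.47 (Spry2) to 9.12 (Fgf2).

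Osteoblasts were compared with marrow stroma, 54 cells of the Bglap gate against 23 of the Cxcl12 gate. Fgfr2 was lower in the Bglap gate, at 42.1 against 287 CPM (-2.77, -3.30 to -2.24), and so was Spry1, at 6.79 against 188 (-4.79, -5.96 to -3.77). These are 2 of 5 members with enough UMIs, where 21.3% of all genes were called lower. Fgf7, at 2.71 against 132 CPM, differed by -5.60 (-7.57 to -4.09) but rests on 32 UMIs and was not called. Fgfr3 was called higher, at 109 against 14.1 CPM (2.95, 1.38 to 5.25), where 12.1% of all genes were. The median log2 ratio was -0.82 over the 5 members and -0.26 over all genes.

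The Fgfr3 of the Bglap gate lay in cells that were also in the Col2a1 gate. In those 25 cells it was at 169 CPM (143 to 198, 155 UMIs), and in the 29 others at 10.8 (3.96 to 23.5, 6 UMIs), a log2 difference of 3.97 (2.81 to 5.44). Fgfrl1 was at 65.4 against 5.40 CPM (3.60, 1.98 to 5.92), and all 29 UMIs of Fgf2 lay in the cells shared with the Col2a1 gate, the others being at 0, which allows up to 5.40 CPM. Fgfr1 was at 214 against 297 CPM (-0.47, -0.78 to -0.17) and Fgfr2 at 27.2 against 66.5 (-1.29, -2.08 to -0.52). With the 29 cells alone, Fgfr3 did not differ from the Cxcl12 gate beyond counting error (-0.39, -2.61 to 2.24), while Fgfr2 (-2.11, -2.74 to -1.50) kept its call as lower and Fgfr1 was at 0.85 (0.32 to 1.42), under 2-fold. Fgfrl1 (-3.80), Fgf7 (-4.19) and Spry1 (-3.54) had intervals below 0 but rest on 19, 32 and 49 UMIs, under the minimum for a call. Spry4 was likewise under it, at -1.75 (-3.41 to -0.16) from 7 against 9 UMIs. The median cell held 32457 UMIs in the 25 shared cells and 17423 in the 29 others. Whether the shared cells are 1 cell each or 2 captured together was not tested beyond a doublet caller, which marked 0 of the 54.

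**Figure D5:**
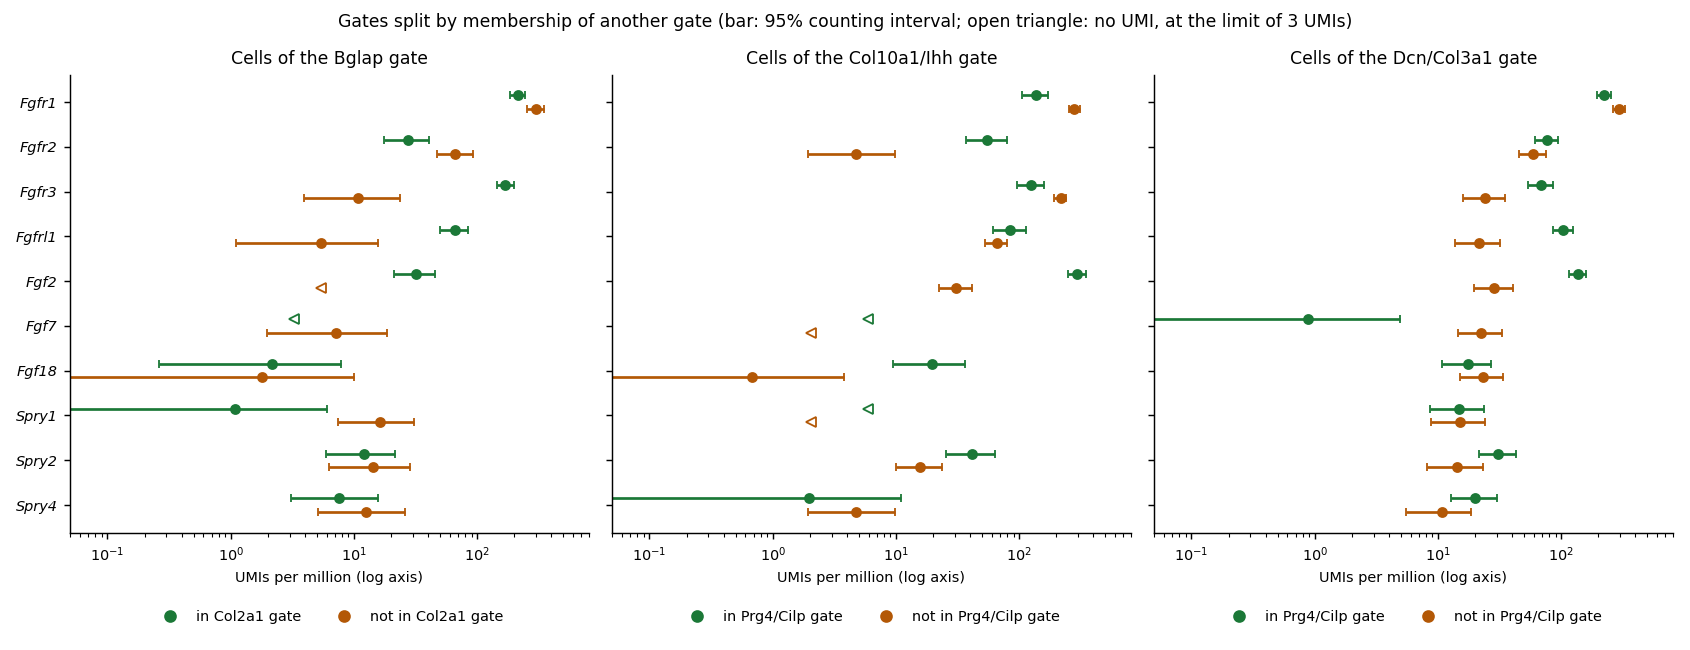
CPM of the 10 genes, on a log axis, in cells of the Bglap, Col10a1/Ihh and Dcn/Col3a1 gates that were (green) or were not (brown) also in the gate named below each panel, with exact Poisson 95% intervals; an open triangle stands for no UMI, at the limit of 3 UMIs, and bars that meet the left edge run on below it. Fgfr3 stands at 169 against 10.8 CPM in the left panel, Fgf2 at 294 against 30.7 in the middle and Fgf7 at 0.875 against 22.3 on the right.

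The 164 cells of the Dcn/Col3a1 gate were set against the 42 remaining Bglap cells. Fgf2 (83.0 against 24.1 CPM, 1.78, 1.19 to 2.43) and Fgfr2 (67.6 against 33.4, 1.02, 0.48 to 1.58) were called higher, 2 of 6 members where 14.3% of all genes were. Fgfr3 was called lower, at 46.4 against 139 CPM (-1.59, -1.96 to -1.22), where 5.16% of all genes were. With cells of the Col2a1 and Prg4/Cilp gates left out of both sides, none of the 3 was called. In cells of exactly 1 gate Fgfr2 turned to -0.64 (-1.65 to 0.38) and Fgfr3 was at -0.88 (-3.30 to 1.55). Fgf2 fell under the minimum of UMIs for a call in both settings but kept its direction in cells of exactly 1 gate. It had 0 UMIs in 15 such Bglap cells, against 19 UMIs, or 36.7 CPM, in 55 such Dcn/Col3a1 cells. Within the gate, the 81 cells that were also in the Prg4/Cilp gate held more Fgf2 (137 against 28.5 CPM), Fgfrl1 (103 against 21.4) and Fgfr3 (68.3 against 24.1) than the 83 others, and less Fgf7, with 1 UMI against 25 (-4.67, -10.03 to -2.06). In the 55 Dcn/Col3a1 cells of no other gate Fgf7 and Fgf18 were each at 40.5 CPM (25.1 to 61.9) and Fgfr3 at 7.72.

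Against the Dcn/Col3a1 gate, the Cxcl12 gate held more Spry1 (188 against 14.7 CPM, 3.68, 2.98 to 4.39), Fgf7 (132 against 11.1, 3.57, 2.73 to 4.40) and Fgfr2 (287 against 61.8, 2.21, 1.76 to 2.66), and less Fgf2 (9.41 against 83.2, -3.14, -6.20 to -1.27) and Fgfr3 (14.1 against 46.7, -1.73, -4.03 to -0.14). Spry4 was higher (1.48, 0.24 to 2.57) on 9 against 34 UMIs, and Fgfr1 was lower by less than 2-fold (-0.65, -1.18 to -0.16). The vessel gate held more Spry1 (2.63, 1.89 to 3.36) and Spry4 (2.30, 1.51 to 3.06) than the Dcn/Col3a1 gate and less Fgfr1 (59.0 against 258 CPM, -2.13, -2.83 to -1.50), Fgfrl1 (-2.16, -3.80 to -0.90), Fgfr3 (-2.04, -3.95 to -0.65), Fgfr2 (-1.42, -2.57 to -0.46) and Fgf2 (0 UMIs against 188). These comparisons were added after the data had been seen. Of the 39 vessel cells, 3 were also in the Cxcl12 gate and held all 9 UMIs of Fgfr2 and all 5 of Fgf7. In the other 36, Spry1 was at 101 CPM (68.4 to 143), Spry4 at 77.9 (49.9 to 116) and Fgfr1 at 45.4 (24.8 to 76.2).

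Against blood, the 541 cells of the 6 non-blood gates held more of all 10 genes than the 3196 Ptprc cells of no other gate, where 24.1% of all genes were called higher, and 0 were lower, where 23.4% were. The log2 ratio was 9.12 for Fgf2, 8.76 for Fgfr2, 8.53 for Fgfr3, 8.02 for Fgf7, 6.05 for Fgfr1 and 5.62 for Fgfrl1, and it was smallest for Spry1 (2.62, 2.13 to 3.12) and Spry2 (1.47, 1.22 to 1.71). Spry2 stood at 23.7 against 8.60 CPM, and Fgf2 at 70.7 against 0.127. The median over the 10 genes was 5.83, against -0.17 over all genes.

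HC descent was read from WPRE, a cell with more than 14 UMIs being counted as HC-derived. In the Bglap and Cxcl12 gates together, 27 such cells held more Spry1 than 50 others, at 49.2 against 21.2 CPM (1.21, 0.35 to 2.07), the only one of 5 members called higher, where 3.98% of all genes were. Fgfr3 (31.5 against 126 CPM, -2.00, -2.84 to -1.25) and Fgfrl1 (17.7 against 59.4, -1.75, -2.93 to -0.74) were called lower, where 6.25% of all genes were. Fgfr1, at 279 against 216 CPM (0.37, 0.07 to 0.68), was under 2-fold. The 2 gates and the Col2a1 overlap were unevenly shared between the sides, and on the HC-derived side a single cell held 75.0% of the 16 Fgfr3 UMIs and 40% of the 25 Spry1 UMIs. The Spry1 ratio turned to -0.24 with a WPRE limit of 19 and to -0.19 in cells of exactly 1 gate. Within the 29 Bglap cells outside the Col2a1 gate, 11 HC-derived cells against 18, Fgfr3 was at 11.8 against 9.94 CPM (0.25, -2.65 to 3.15) and Spry1 at 7.87 against 23.2 (-1.56, -4.86 to 0.83), and Fgfr1 was at 212 against 368 (-0.79, -1.29 to -0.31), opposite in direction to its ratio over both gates. Within the Cxcl12 gate, 10 against 13, Spry1 was at 232 against 149 CPM (0.64, -0.33 to 1.63), Fgf7 at 101 against 158 (-0.65, -1.92 to 0.54) and Fgfr2 at 283 against 290.2 (-0.04, -0.82 to 0.73). Fgfr3, Fgfrl1 and Spry1, the 3 genes called over both gates, did not differ beyond counting error within either of these 2 sets of cells, where few UMIs remain.

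In the Col2a1 gate, the 45 cells with UMIs of at least 2 of the division genes Top2a, Mki67 and Birc5 were compared with the 198 others. Fgfr1 was at 72.2 against 233 CPM (-1.69, -2.01 to -1.39) and Spry2 at 7.37 against 21.1 (-1.52, -2.63 to -0.58), 2 of 6 members called lower, where 5.26% of all genes were. None was called higher, where 8.18% were. Fgfr3 was level, at 200.4 against 199 CPM (0.01, -0.19 to 0.21), and so was Fgfrl1, at 121 against 129 (-0.10, -0.36 to 0.16). Fgfr3 thus made up 69.6% of receptor UMIs in the cells with division genes (272 of 391) and 44.0% in the others (858 of 1948). In the 142 Col2a1 cells of no other gate Fgfr1 was at 137 CPM and Fgfr3 at 240.3. Among those cells of 1 gate the ratio between cells with and without division genes was -1.46 for Fgfr1 (-1.93 to -1.01) and 0.26 for Fgfr3 (0.01 to 0.50).

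The other genes of the pathway were few at the level of ligands and many downstream. Of 19 other FGF ligands, only Fgf1 and Fgf13 reached 50 UMIs over the 7 gates, and 7 (Fgf4, Fgf5, Fgf6, Fgf8, Fgf14, Fgf21 and the bone hormone Fgf23) had none. Fgf1 was at 49.6 CPM in the Col10a1/Ihh gate against 8.52 in the Col2a1 cells (2.54, 1.98 to 3.14), and at 1.47 against 26.5 in Col2a1 cells with division genes (-4.17, -7.23 to -2.28). Fgf13 was lower in the non-blood gates than in blood (1.37 against 2.82 CPM, -1.05). Of the 9 other receptors and co-receptors, 5 had enough UMIs. Fgfr4 was at 1.06 CPM in the Col2a1 gate and had no UMI in the other 5 non-blood gates.

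Co-receptors of the list, which include Nrp1, Nrp2, the cadherin Cdh2 and the FLRT proteins, were lower in both comparisons against the Col2a1 gate, 4 of 5 with enough UMIs each time, where 10.1% of all genes were lower for the Col10a1/Ihh gate and 7.15% for the Prg4/Cilp gate. In the Col10a1/Ihh gate these were Nrp2 (2.53 against 131 CPM, -5.69, -7.32 to -4.46), Cdh2 (0 UMIs against 161, which lay in 12 cells), Flrt2 (-1.84) and Nrp1 (-1.44), and in the Prg4/Cilp gate Cdh2 (0 against 161 UMIs), Nrp2 (-2.14), Nrp1 (-1.67) and Flrt3 (-1.52). In the Bglap gate Nrp2 was higher than in the Cxcl12 gate (590.3 against 230.4 CPM, 1.36) and Nrp1 lower (25.1 against 381, -3.92). Cdh2 and Nrp2 were called lower in the Dcn/Col3a1 gate than in the Bglap cells. Of the 243 Col2a1 gate cells, 25 were also in the Bglap gate, and co-receptor ratios without them were not taken. Both comparisons used the Col2a1 gate, and 35 Col10a1/Ihh cells were also in the Prg4/Cilp gate, so they are not independent.

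Of the 16 target genes and feedback inhibitors, 11 had enough UMIs in the Prg4/Cilp comparison. The ERK phosphatase Dusp6 (39.1 against 8.79 CPM, 2.15, 1.65 to 2.68) and the ETS factors Etv5 (16.5 against 3.74, 2.14) and Etv1 (12.6 against 3.74, 1.75) were called higher, and Ccnd1, which encodes cyclin D1 (21.2 against 148, -2.80, -3.21 to -2.42), and Dusp5 (57.4 against 159, -1.47) lower. Their median was 0.66, against 0.06 over all genes. Against the Bglap cells, the Dcn/Col3a1 gate held more Dusp6 (3.02, 1.74 to 4.68) and Etv1 (2.25) and less Dusp5 (-1.17), where 14.3% of all genes were higher and 5.16% lower. This is not a separate result, since 81 Dcn/Col3a1 cells were also in the Prg4/Cilp gate and 25 Bglap cells in the Col2a1 gate. The target genes were not compared without those cells. In the Col10a1/Ihh gate 1 of 9 was called, Ccnd1 lower (19.2 against 187 CPM, -3.28). Against blood 9 of 13 were higher, where 24.1% of all genes were, led by Ccnd1 (3.23), Etv1 (3.05), Egr1 (2.92) and Spred1 (2.31), and Dusp4 was lower (-2.10).

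Relay genes, from the docking protein Frs2 to the kinases, passed the rule in few of the comparisons given here. None of 20 was called in the Prg4/Cilp comparison and none of 18 in the Dcn/Col3a1 comparison. Cbl, Stat3 and Mapk3 were lower in the Bglap gate than in the Cxcl12 gate, at -1.88, -1.23 and -1.21. Of 20 genes for heparan sulfate and FGF binding, 16 had enough UMIs in the Prg4/Cilp comparison. The sulfatases Sulf2 (109 against 12.9 CPM, 3.07, 2.69 to 3.47) and Sulf1 (51.3 against 8.79, 2.54) were higher, and the proteoglycan genes Gpc1 (-2.05), Sdc3 (-1.60) and Hspg2, which encodes perlecan (-1.56), were lower. Both sulfatases were also higher in the Col10a1/Ihh comparison (1.97 and 1.05) and in the Dcn/Col3a1 comparison (2.24 and 5.40), in the order Sulf1 and Sulf2, though both gates share cells with the Prg4/Cilp gate (35 and 81). Sulf1 was lower in the Bglap gate than in the Cxcl12 gate (-2.35), and Sulf2 was lower in Col10a1/Ihh cells with Ihh (-4.02) and in Col2a1 cells with division genes (-1.82). Of these genes, 13 of 16 were higher than in blood, where 24.1% of all genes were.

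Genes with a profile most like each member were ranked by Pearson's r of log2(CPM + 10) across the 7 gates, among 13006 genes with at least 50 UMIs. With 7 points that share cells and a common blood gate, high values are frequent, and they are a description only: 499 genes reached 0.95 with Fgf7 and 31 with Fgfrl1. Nearest to Fgfr3 were Ldlrad3 (0.996), the cartilage collagen gene Col27a1 (0.995) and Atf3 (0.988). Nearest to Fgf7 were Lamb1 (0.999), Ptgfr (0.996) and Kitl (0.996), the last of these also a marrow stroma marker in the list used above. Fgf2 was nearest to Phlda1 (0.987), Fgf18 to Egr3 (0.989), Fgfr2 to Camk2n1 (0.989), Fgfr1 to Fam114a1 (0.993), Fgfrl1 to Sec16a (0.995), Spry1 to Ubr1 (0.997), Spry2 to Foxd2 (0.992) and Spry4 to Tbc1d12 (0.993). Among the members themselves the highest values were those of Fgf7 with Spry1 (0.992), Fgfr2 with Spry4 (0.980), Spry1 with Spry4 (0.940) and Fgf2 with Spry2 (0.930).

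The genes lie, in the GENCODE M21 annotation of GRCm38, at chr8:25513654-25575718 (Fgfr1, ENSMUSG00000031565), chr7:130162451-133123350 (Fgfr2, ENSMUSG00000030849), chr5:33721674-33737068 (Fgfr3, ENSMUSG00000054252), chr5:108692382-108706924 (Fgfrl1, ENSMUSG00000008090), chr3:37348346-37410108 (Fgf2, ENSMUSG00000037225), chr2:126034658-126091185 (Fgf7, ENSMUSG00000027208), chr11:33117430-33147400 (Fgf18, ENSMUSG00000057967), chr3:37639947-37644598 (Spry1, ENSMUSG00000037211), chr14:105891947-105896819 (Spry2, ENSMUSG00000022114) and chr18:38586247-38601415 (Spry4, ENSMUSG00000024427). All 10 are annotated as protein coding. The annotated span of Fgfr2 includes 69 other genes, and Fgf7 overlaps Fam227b on the opposite strand.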

How the data were processed

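Cells of the tibia, taken from the trabecular region with some growth plate, were released with trypsin and then dispase and collagenase, after the first suspensions, rich in blood, were discarded. The authors sequenced them as droplet libraries and processed them with Cell Ranger 3.1.0 on mm10, and the matrix they deposited holds raw UMI counts per gene and barcode, with no normalization. The sources used here do not say whether counting used strand. Barcodes of at least 1600 genes were kept, and the doublets that Scrublet marked (445 of 12564 barcodes, in scanpy 1.11.5) were kept and left out only as an alternative. Raw counts were summed over the cells of each gate with Python 3.11.15, numpy 2.4.6, scipy 1.17.1 and pandas 2.3.3, and given as CPM with exact Poisson intervals, as shares of cells with Clopper-Pearson intervals, and as ratios with exact conditional intervals, all at 95% and for counting error only. A gene at 0 was given the limit that 3 counts allow. Shares were repeated after thinning every cell to 3000 UMIs in 100 draws. Each ratio needed 50 UMIs on both sides together, an interval without 0 and a 2-fold difference to be called, and the scripts for ratios and calls were tested on simulated data. The 10 genes were all named, other genes only from the pathway lists where they passed this rule or had no UMI, and the 3 nearest profiles per gene. Relay genes of the Col10a1/Ihh comparison are not reported here. The genes, lists and gates were chosen with earlier results of these data known. Gene names came from the matrix, and 30934 of 31053 identifiers matched GENCODE M21. Promoter windows were from RefSeq, with entries for 8 of the 10 genes. With 1 pool there were no replicates, no pairing and no test. The alternatives comprised 16 planned settings and 6 added after the data had been seen.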

Additional observations from a re-analysis of the deposited data

Results flagged for a closer look

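All 10 genes were also seen in barcodes that no comparison used, above the limit of 3 UMIs that a count of 0 allows. In the 8092 barcodes below the floor of 1600 genes (33830216 UMIs, limit 0.0887 CPM), Spry2 stood at 6.56 CPM, Fgfrl1 at 3.67, Fgfr1 at 2.81, Fgfr2 at 0.916, Fgfr3 at 0.887, Spry1 at 0.739, Fgf2 at 0.503, Spry4 at 0.355, Fgf18 at 0.148 and Fgf7 at 0.118. These values compare with 8.60 CPM for Spry2 and 2.95 CPM for Fgfr1 in the Ptprc cells of no other gate.

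In the 699 barcodes past the floor that lay in none of the 7 gates or the vessel gate (8504251 UMIs, limit 0.353 CPM), Fgfr1 stood at 14.3 CPM, Fgfrl1 at 8.70, Spry2 at 8.58, Fgfr3 at 2.47, Spry4 at 1.88, Spry1 at 1.53, Fgfr2 at 1.29, Fgf18 at 1.18 and Fgf7 at 0.823. Fgfr1 UMIs lay in 35 of these barcodes. Fgf2, with 3 UMIs, was at the limit. The identity of these cells was not examined.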

How the results depend on the processing

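The 31 called log2 ratios were recomputed 317 times over the planned and added settings, without those of minimum UMIs and fold, which leave a ratio unchanged. Of these values, 9 changed sign. With Col10a1/Ihh cells taken without Prg4/Cilp cells, Fgf2 was at -0.33 against the Col2a1 gate and at 0.28 between cells with and without Ihh. Fgfr3 in the Bglap against the Cxcl12 gate was at -0.15 in cells of exactly 1 gate and -0.39 without Col2a1 cells. Fgfr2 in the Dcn/Col3a1 against the Bglap gate was at -0.64 in cells of exactly 1 gate. By WPRE, Fgfr3 was at 0.25 within Bglap cells outside the Col2a1 gate, and Spry1 at -0.19 in cells of exactly 1 gate, -0.24 with a limit of 19 and -1.56 within Bglap cells outside the Col2a1 gate. The cause was not tested beyond the cells each setting leaves out.

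Counts of the 10 genes called moved by over 1.5 times as follows. Col10a1/Ihh without Prg4/Cilp cells gave 0 higher and 2 lower against Col2a1, and 0 lower by Ihh. The Prg4/Cilp comparison gave 3 higher in cells of exactly 1 gate and with a minimum of 100 UMIs. Bglap against Cxcl12 gave 0 higher thinned, in cells of exactly 1 gate and without Col2a1 cells, and 1 lower in cells of exactly 1 gate, without Col2a1 cells, without Ptprc cells, at a minimum of 100 and without the top cell, but 4 lower at a minimum of 20. Dcn/Col3a1 against Bglap gave 1 higher with cells weighted equally, thinned or gate limits doubled, and 4 at a minimum of 20. It gave 0 higher and 0 lower in cells of exactly 1 gate or without Col2a1 and Prg4/Cilp cells. In both of these settings Fgf2 fell under the minimum of UMIs. In cells of exactly 1 gate Fgf2 had 0 UMIs in the Bglap gate, against 36.7 CPM in the Dcn/Col3a1 gate. By WPRE, 0 were higher in 13 settings and 2 at a minimum of 20, and 0 were lower thinned, in cells of exactly 1 gate and in the 3 added settings, with 1 at a minimum of 100. By Ihh, 2 were higher at a fold of 1.5 or without the top cell, and 3 lower at a minimum of 20. With division genes, 1 was lower after thinning. Against blood 8 of 10 were higher at a minimum of 100 and all 10 in each other setting run.

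Each gene but Fgfr1 kept its highest gate in cells of exactly 1 gate, where Fgfr1 was at 301 CPM in 15 Bglap cells and 235 in 55 Dcn/Col3a1 cells. No paired analysis was possible because all samples are 1 group in 1 pool, and no replicate could be left out. The Cxcl12 gate held 23 cells with a median depth of 7733 UMIs, and 3 UMIs there are 14.1 CPM.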
